A study of Mus musculus with 20 samples.

Results

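The nuclear-encoded subunits of the mitochondrial respiratory chain and of ATP synthase were followed in mouse spinal cord after activation of the glucocorticoid receptor. Genes were taken by symbol: the Nduf subunit genes, the Sdh genes, the Uqcr genes, the Cox4 to Cox8 genes and the Atp5 genes, each represented by its probe set of highest average signal across the 20 arrays. The choice gave 79 of the 22180 genes with a probe set of their own, made up of 32 genes of complex I, 4 of complex II, 8 of complex III, 17 of complex IV and 18 of complex V. Of these, 77 are named as protein genes, and Uqcrh-ps1 and Atp5c1-ps are pseudogenes. Probe sets shared by several symbols were left out, and with them Cox6c, Ndufb2, Ndufb4, Ndufs6 and Uqcr10 were not analysed here.

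Each of the 4 groups held 5 arrays from 5 mice. They were Cx30GRko mice given dexamethasone (Dex, a synthetic agonist of the glucocorticoid receptor), Cx30GRko mice given saline, control mice given Dex, and control mice given saline. The mice were on the C57BL/6J background and 6 to 10 weeks old, the dose was 4 mg/kg into the peritoneum, and the spinal cord was taken 4 h later. Cx30GRko mice lose the receptor gene through Cre recombination wherever connexin 30 is expressed. In the nervous system that gap junction protein is mainly found in astrocytes. Which cells lost or kept the receptor was not measured here. The submitters name the spinal cord as the tissue where recombination was most efficient. The labels do not say which alleles the control mice carry. Arrays titled Tg were read as Cx30GRko and arrays titled wt as control.

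The respiratory chain passes electrons from NADH and succinate to oxygen and pumps protons across the inner mitochondrial membrane, and ATP synthase uses the resulting gradient to make ATP. Complex I (NADH dehydrogenase) and complex II (succinate dehydrogenase, also an enzyme of the tricarboxylic acid cycle) feed electrons to coenzyme Q. Complex III (cytochrome bc1) hands them to cytochrome c, complex IV (cytochrome c oxidase) reduces oxygen, and complex V is ATP synthase. Neurons draw most of their ATP from this pathway. Most subunits are encoded in the nucleus, and the catalytic core of complexes I, III and IV is in part encoded by mitochondrial DNA. Transcription of the nuclear genes is known to involve the factors NRF1 and GABP, an ETS family factor, and YY1. Ndufa4 carries a complex I name but is now counted with complex IV. By its name it is kept with complex I, as an accessory subunit, in the counts and medians here.

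The promoters of 4 subunits are shown because these genes had the smallest unadjusted p for the mean Dex effect within their complexes and because all 4 carry letters of the factors named above. The sequences are RefSeq's for build GRCm38.p6. Each runs from 250 bases before to 50 bases after the annotated start, 5′ to 3′ on the gene's own strand, which is the minus strand for all 4. Capitals mark matches, on either strand, to the NRF1 consensus (the GC-rich runs), the ETS core CCGGAAG and the CCAAT box. None of the marked matches overlap. Ndufs5 is at chr4:123718137-123718436, Uqcrh at chr4:116075021-116075320, Cox6a1 at chr5:115348909-115349208 and Atp5h at chr11:115419870-115420169.
Ndufs5: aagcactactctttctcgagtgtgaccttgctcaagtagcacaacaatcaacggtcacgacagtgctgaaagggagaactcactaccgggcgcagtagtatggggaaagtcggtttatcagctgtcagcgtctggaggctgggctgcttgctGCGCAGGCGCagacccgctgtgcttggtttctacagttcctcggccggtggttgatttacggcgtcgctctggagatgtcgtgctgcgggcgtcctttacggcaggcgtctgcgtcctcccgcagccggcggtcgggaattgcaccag
Uqcrh: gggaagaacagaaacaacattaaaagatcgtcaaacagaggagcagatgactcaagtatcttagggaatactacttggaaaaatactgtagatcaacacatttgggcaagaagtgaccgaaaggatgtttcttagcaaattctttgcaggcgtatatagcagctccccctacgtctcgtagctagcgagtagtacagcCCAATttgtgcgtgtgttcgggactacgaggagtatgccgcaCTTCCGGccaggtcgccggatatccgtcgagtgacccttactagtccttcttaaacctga
Cox6a1: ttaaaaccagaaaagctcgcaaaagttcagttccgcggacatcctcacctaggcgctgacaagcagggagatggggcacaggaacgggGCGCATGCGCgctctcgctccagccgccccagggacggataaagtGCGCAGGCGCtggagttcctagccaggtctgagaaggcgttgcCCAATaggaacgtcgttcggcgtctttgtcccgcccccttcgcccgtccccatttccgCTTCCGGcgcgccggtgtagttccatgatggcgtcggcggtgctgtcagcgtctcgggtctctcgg
Atp5h: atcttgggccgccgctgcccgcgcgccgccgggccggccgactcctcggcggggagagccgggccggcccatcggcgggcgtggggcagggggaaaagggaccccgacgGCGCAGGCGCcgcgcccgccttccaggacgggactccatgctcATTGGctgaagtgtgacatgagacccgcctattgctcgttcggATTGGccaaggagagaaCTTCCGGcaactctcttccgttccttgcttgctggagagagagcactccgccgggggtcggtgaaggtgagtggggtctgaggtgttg

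In the Ndufs5 window the NRF1 match began at base -98 from the start site. The Uqcrh window held a CCAAT box at -52 and an ETS core at -10. Cox6a1 carried NRF1 matches at -162 and -117, a CCAAT box at -74 and an ETS core at -16. Atp5h carried an NRF1 match at -141, CCAAT boxes at -98 and -55, and an ETS core at -38. The ETS cores of Uqcrh, Cox6a1 and Atp5h, the NRF1 matches GCGCAGGCGC and the Atp5h CCAAT boxes were on the strand opposite to the printed one. A promoter was available for 64 of the 79 genes. The NRF1 motif was found in 15 of the 64 genes (23.4%), against 5.19% of the 27025 genes with a promoter. The ETS core was found in 17 (26.6%, against 9.93%) and the YY1 core AAGATGGCG in 6 (9.38%, against 1.64%). The CCAAT box was in 26 (40.6%, against 41.1%). The full palindromic glucocorticoid response element was in none of the 64 and in 3 of all genes (0.0111%). Altogether 28 of the 64 held an NRF1 or an ETS match and 4 held both. These are matches of letters in a window and were not tested as sites.

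Values are log2 signals of probe sets. All arrays had the same mean of 4.64. The deposited values are centred in 2 batches that the labels do not mention. Set A is the 12 arrays numbered 1 to 3 and set B the 8 arrays numbered 4 and 5, each with every group in equal numbers, so results within each set stand beside the pooled ones. Because of the centring, a gene whose average on 2 of the 8 arrays is above its own mean averages below it over the others. The number of arrays limits the precision. The tissue markers were present: Snap25 (neurons) had group means of 10.12 to 10.55, Aqp4 (astrocytes) 8.65 to 9.11 and Mbp (oligodendrocytes) 7.93 to 8.15. Nr3c1, the gene of the glucocorticoid receptor, averaged 6.59 ± 0.70 on Cx30GRko Dex arrays, 6.19 ± 0.21 on Cx30GRko saline arrays, 6.22 ± 0.08 on control Dex arrays and 6.21 ± 0.50 on control saline arrays (SD, n = 5 each), so in whole spinal cord it did not mark the genotype. Fkbp5, a standard target of the receptor, lay between 6.56 and 7.17 on the 6 Dex arrays of set A, against 5.48 to 5.75 on the 6 saline arrays. Its Dex signals in set B, 5.75 to 6.80, overlapped the saline signals, 6.13 to 6.58. In control mice of set B they were 6.29 and 5.75 with Dex, against 6.15 and 6.58 with saline. In Cx30GRko mice they were 5.96 and 6.80 with Dex, against 6.13 and 6.14 with saline. The rise of Fkbp5 with Dex in set A was thus not seen in control mice of set B. Cx30GRko Dex replicates 4 and 5 stood apart. Signals across probe sets had SDs of 1.95 and 1.81 on these arrays, against 1.66 to 1.71 on the rest of set B.

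The subunits were well measured in this tissue. Of the 79 genes, 66 had a mean signal above the median probe set, and 32 were in the brightest decile of all genes. The 13 dim ones include the muscle, testis and lung forms of complex IV (Cox4i2, Cox6a2, Cox6b2, Cox7a1, Cox7b2, Cox8b and Cox8c) and both pseudogenes. Ndufb3, Ndufs5, Uqcrq and Atp5j2 were also dim. In bulk tissue fewer cells of a type and less RNA per cell cannot be told apart. Many subunit genes have processed pseudogenes elsewhere in the genome, whose transcripts a probe set could share, so the values of single genes are uncertain to that extent. For 9 genes the brighter of 2 probe sets is described and the other is not shown. These are Ndufa8, Ndufa11, Ndufa12, Cox5b, Cox7b, Atp5d, Atp5e, Atp5g2 and Atp5h. The median residual SD of a subunit was 0.15 in set A and 0.36 in set B, against 0.21 and 0.37 for all genes. In set A it was lowest for Sdha, at 0.06, and highest for Atp5c1-ps, at 0.47.

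**Figure D1:**
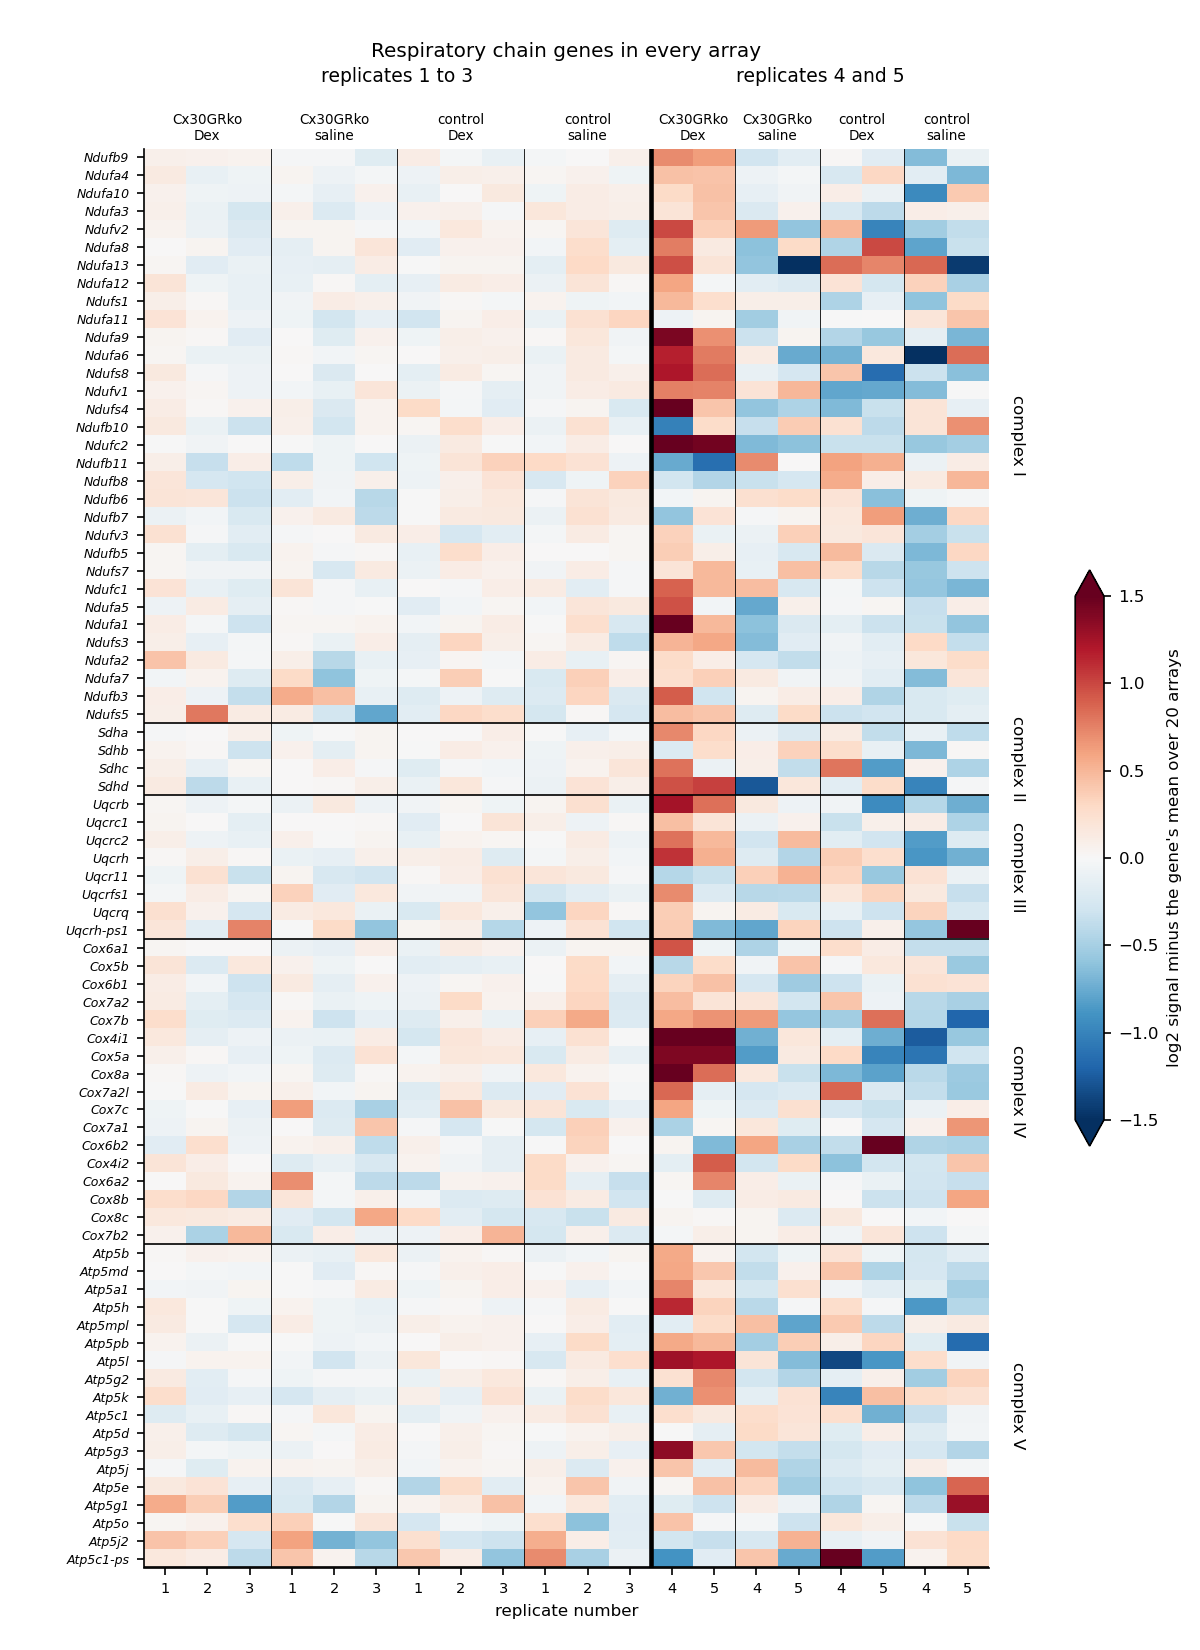
Deviation of each of the 79 genes (rows, by complex) from its own mean over the 20 arrays, on the log2 scale, with the arrays in columns by array set and group. In replicates 1 to 3 most cells are close to 0, and the widest block of positive values is on Cx30GRko Dex replicates 4 and 5.

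No subunit passed an adjusted p of 0.05 in any comparison. The subunits were close together across the groups in set A, and stood high on Cx30GRko Dex replicates 4 and 5. The mean deviation of the 79 genes from their own means was 0.09, -0.01, -0.09, 0.47 and 0.28 on the Cx30GRko Dex arrays. It was 0.04, -0.09, -0.04, -0.11 and -0.09 on the Cx30GRko saline arrays. Control Dex arrays gave -0.05, 0.06, 0.02, -0.01 and -0.15, and control saline arrays -0.01, 0.10, -0.03, -0.28 and -0.12. In set A the 12 values overlapped across all groups. In set B both Cx30GRko Dex arrays lay above the other 6, and control saline replicate 4 was the lowest. Group means were 0.15 ± 0.23, -0.06 ± 0.06, -0.02 ± 0.08 and -0.07 ± 0.14 in the same order of groups (SD, n = 5 each), and the pooled SD within groups was 0.14.

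**Figure D2:**
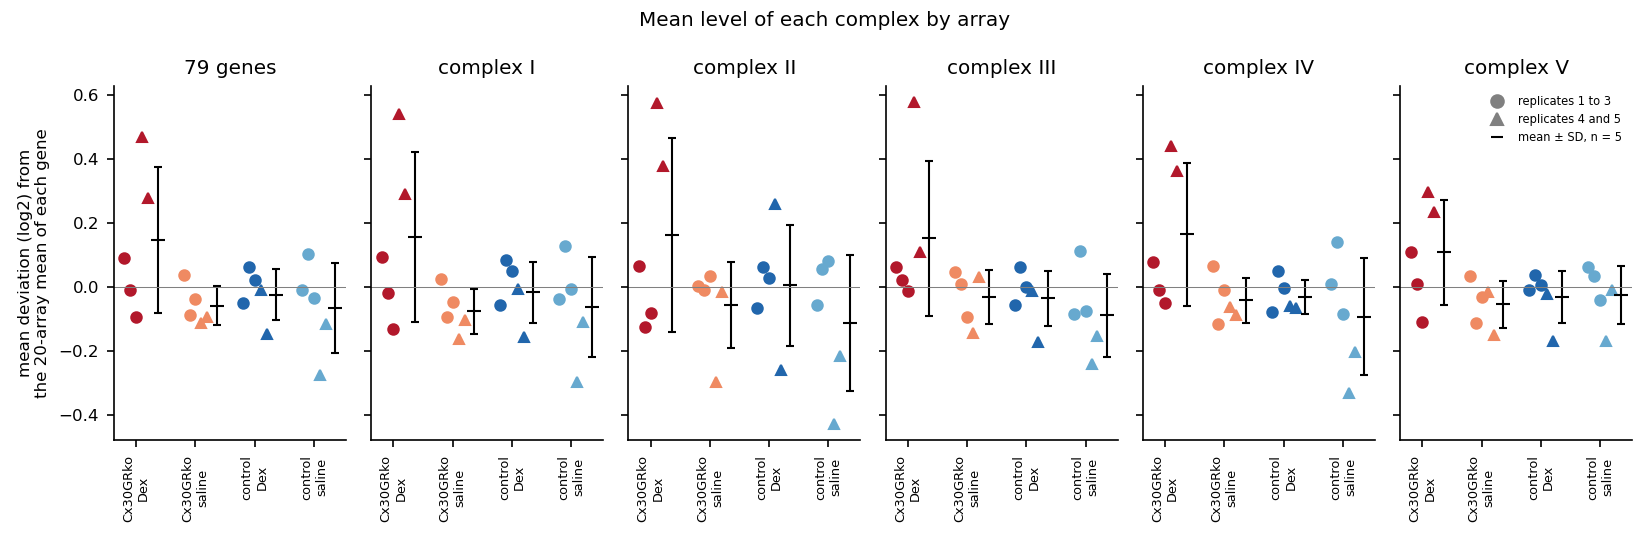
Mean deviation (log2) of all 79 genes and of the genes of each complex on every array, by group, with circles for replicates 1 to 3, triangles for replicates 4 and 5, and bars for the group mean ± SD (n = 5). The 2 highest triangles in the panel of 79 genes, 0.47 and 0.28, are Cx30GRko Dex arrays.

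Gene by gene, 27 of the 79 subunits (34.2%) had both Cx30GRko Dex replicates 4 and 5 above the other 6 arrays of the set, and 2 (2.53%), Ndufb11 and Atp5j2, had both below. Among all genes the shares were 12.9% above and 6.66% below. Among the 2218 genes of the brightest decile they were 39% and 3.52%. By complex, the 27 were 13 of 32 in complex I, 2 of 4 in complex II, 4 of 8 in complex III, 4 of 17 in complex IV and 4 of 18 in complex V. Cx30GRko Dex replicate 4 held the highest signal of set B for 39 of the 79 genes (49.4%), against 22.8% of all genes and 53.5% of the brightest decile. Replicate 5 held it for 12 (15.2%), against 13.2% and 9.83%. Markers of astrocytes, neurons and oligodendrocytes were also high on these 2 arrays, and those of 6 other lists did not exceed the other 18 arrays on both. All genes of the brightest decile had mean deviations of 0.53 and 0.23 there, against -0.26 to 0.0084 on the other 18 arrays. On Cx30GRko Dex replicates 4 and 5 the mean deviation of 10 astrocyte markers was 0.84 and 0.47, against -0.46 to 0.13 on the other 18 arrays. The 12 neuron markers were at 0.66 and 0.39, against -0.47 to 0.16, and the 8 measured oligodendrocyte markers at 0.80 and 0.27, against -0.38 to 0.24. Endothelial markers were at 0.55 and 0.14 (-0.48 to 0.34 on the other arrays), and microglial markers at -0.15 and 0.14 (-0.42 to 0.32). Meningeal fibroblast markers were at 1.12 and 0.0068 (-1.19 to 0.90), Schwann cell and root markers at 0.78 and -0.47 (-1.07 to 1.18), skeletal muscle markers at -0.57 and -0.06 (-0.24 to 0.81) and erythrocyte markers at 0.02 and -0.14 (-0.55 to 0.73). The part of array quality or tissue composition in the subunit values was not tested.

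Dex was compared with saline in Cx30GRko mice to ask what the drug does where the receptor gene is targeted in astrocytes. The median subunit was 0.20 higher on the log2 scale with Dex, against 0.02 for all genes, and 63 of 79 fitted differences were above 0, against 53.7% of all genes. Within the brightest decile the median was 0.25 for the subunits and 0.18 for all genes, and within the ninth 0.07 and 0.11. The limma test called 0 subunits at an adjusted p under 0.05, where it called 4 of 22180 genes (0.018%). At an unadjusted p under 0.05 there were 10 subunits, against 9.73% of all genes, so their share of 12.7% was near the background. The median subunit difference was -0.0019 in set A and 0.41 in set B. Quantile normalization of the deposited values brought the pooled median to 0.09 and that of set B to 0.19, against 0.02 and 0.08 for all genes. In set A, 38 of 79 differences were above 0 (49.7% of all genes), 0 subunits were called by limma (0.0316% of all genes) and 2 had an unadjusted p under 0.05 (5.9% of all genes). In set B, 60 were above 0 (54.9% of all genes), limma called 0 subunits and 0 genes, and 20 subunits had an unadjusted p under 0.05 (13.2% of all genes). Without Cx30GRko Dex replicates 4 and 5 the median was 0.04.

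Dex was compared with saline in control mice to ask what it does where all cells keep the receptor. The median subunit was 0.08 higher with Dex, against 0.01 for all genes, and 49 of 79 differences were above 0 (52.3% of all genes). Within the brightest decile the median was 0.10 for the subunits and 0.05 for all genes, and within the ninth 0.04 and 0.03. The limma test called 0 subunits (0.0135% of all genes), and 0 had an unadjusted p under 0.05, against 5.16% of all genes. The median was -0.0043 in set A, where 36 differences were above 0 (51.9% of all genes) and limma called 0 subunits (0.171% of all genes), with 0 at an unadjusted p under 0.05 (7.41% of all genes). In set B it was 0.13, 51 were above 0 (51.5% of all genes), limma called 0 subunits and 0 genes, and 2 subunits had an unadjusted p under 0.05 (4.64% of all genes). The pooled median was 0.02 without control saline replicate 4, the array on which the subunits were lowest.

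The mean of both Dex effects uses all 20 arrays. Its median over the subunits was 0.12, against 0.02 for all genes, with 58 of 79 above 0 (54.1% of all genes). Limma called 0 subunits (0.149% of all genes, 33 genes), and 8 subunits had an unadjusted p under 0.05 (8.64% of all genes). Set A gave a median of -0.00017, 39 were above 0 (50.1% of all genes), limma called 0 subunits (0.455% of all genes), and 1 subunit, Ndufs5, had an unadjusted p under 0.05 (7.36% of all genes). In set B the median was 0.32, 58 were above 0 (54.5% of all genes), limma called 0 subunits and 0 genes, and 12 subunits had an unadjusted p under 0.05 (10% of all genes). After quantile normalization the median was 0.07 over all arrays and 0.16 in set B, against 0.02 and 0.05 for all genes. The fits bound the size of an effect in set A: the 95% interval of the mean Dex effect lay within ±0.5 log2, or 1.41-fold, for 72 of the 79 subunits. Over all 20 arrays it did so for 52. For the effect in Cx30GRko mice alone the counts were 58 in set A and 22 over all arrays, and in control mice 59 and 32.

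**Figure D3:**
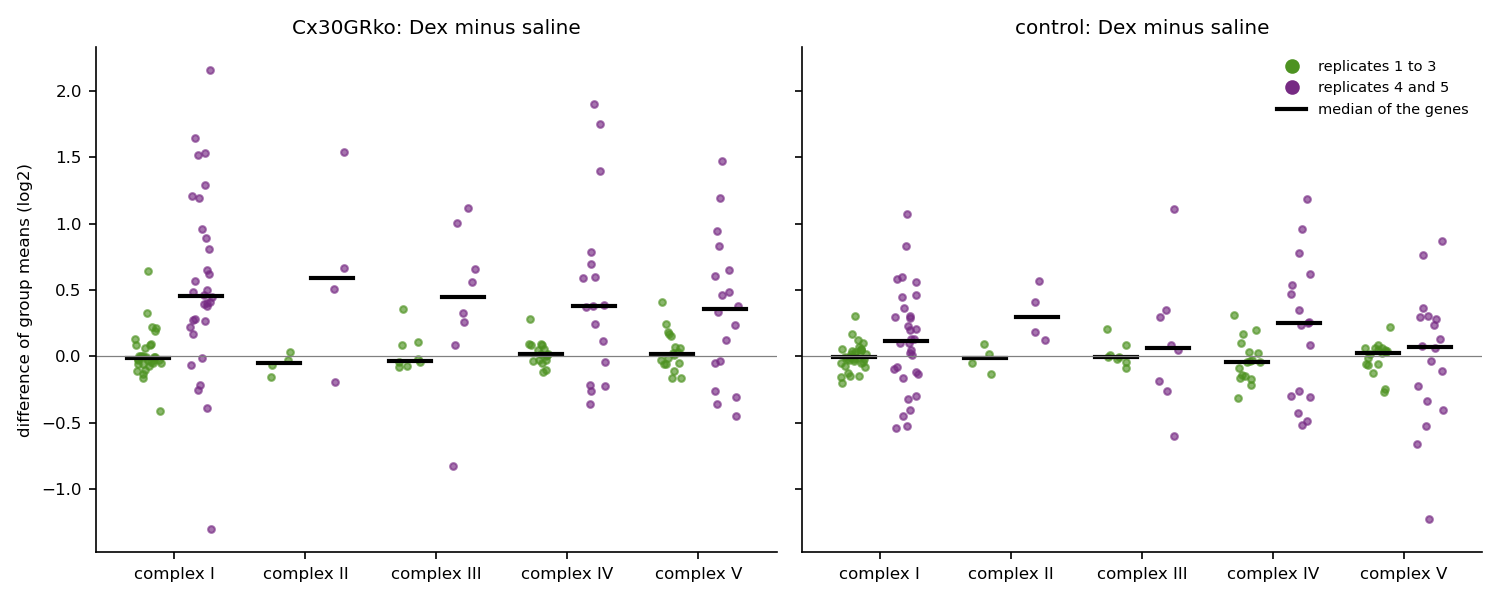
Dex minus saline difference (log2) of each subunit gene by complex, in Cx30GRko mice on the left and control mice on the right, with green points for replicates 1 to 3, purple points for replicates 4 and 5, and bars for the median. The green medians lie within 0.05 of 0 in every complex and both genotypes, and the purple medians in Cx30GRko mice lie between 0.36 and 0.59.

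All 5 complexes showed the same split between the array sets. In Cx30GRko mice the median Dex difference was 0.20 for complex I, 0.24 for complex II, 0.20 for complex III, 0.14 for complex IV and 0.13 for complex V over all arrays. In set A these medians were -0.02, -0.05, -0.03, 0.02 and 0.02, and in set B they were 0.46, 0.59, 0.44, 0.38 and 0.36. In control mice the medians over all arrays were 0.07, 0.14, -0.0017, 0.10 and 0.04 in the same order. In set B the widely expressed subunits of complex IV had a median Dex difference of 0.70 in Cx30GRko mice (9 genes) and its tissue-restricted forms -0.04 (7 genes). The tissue-restricted forms are all among the dim genes, and the Dex differences of all genes in set B varied with signal. In complex I the median was 0.53 for the 6 core subunits and 0.46 for the 26 accessory subunits. In complex III it was 0.56 for the 3 core and Rieske proteins and 0.63 for the 4 small subunits. In complex V it was 0.33 for the 5 subunits of F1, the head and the central stalk together. It was 0.83 for the 3 genes of the c ring, 0.49 for the 4 of the peripheral stalk and 0.24 for 5 small membrane subunits. All of these role medians were between -0.07 and 0.15 in set A.

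Complex I takes electrons from NADH through a matrix arm and pumps protons in a membrane arm. Ndufs5, an accessory subunit of the membrane arm, was the only subunit with an unadjusted p under 0.05 for the mean Dex effect in set A. Ndufs5 had log2 signals of 3.63, 4.34, 3.68, 4.01 and 3.97 on the Cx30GRko Dex arrays and 3.67, 3.28, 2.77, 3.36 and 3.84 on the Cx30GRko saline arrays. Ndufs5 signals in control mice were 3.40, 3.86, 3.81, 3.23 and 3.26 with Dex and 3.28, 3.57, 3.30, 3.32 and 3.41 with saline. Its signal is below the median probe set. In set A the Dex signals were 3.40 or higher in both genotypes, and only Cx30GRko saline replicate 1 and control saline replicate 2 reached that level without Dex. The mean Dex effect was 0.34 ± 0.13 (SE; limma adjusted p = 0.537), at 0.48 in set A and 0.14 in set B. In Cx30GRko mice the difference was 0.54 ± 0.19 (SE; limma adjusted p = 0.470).

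Ndufc2, another accessory subunit of the membrane arm, gave a wide contrast between the array sets for the Dex difference in Cx30GRko mice. Ndufc2 had log2 signals of 6.65, 6.61, 6.66, 8.25 and 8.10 on the Cx30GRko Dex arrays and 6.65, 6.60, 6.66, 6.00 and 6.04 on the Cx30GRko saline arrays. Ndufc2 signals in control mice were 6.57, 6.79, 6.65, 6.33 and 6.32 with Dex and 6.62, 6.78, 6.67, 6.09 and 6.15 with saline. In set A all 12 signals lay between 6.57 and 6.79. In set B both Cx30GRko Dex arrays were above 8, and the other 6 were at 6.33 or below. The Dex difference in Cx30GRko mice was 0.86 ± 0.28 (SE; 1.82-fold, limma adjusted p = 0.470), at 0.0030 in set A and 2.16 in set B, where the limma adjusted p was 0.120 and the gene had the smallest residual SD of the 79 subunits in set B, 0.06.

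Ndufa2, an accessory subunit of the matrix arm, and Ndufa11, of the membrane arm, differed in the same direction in both array sets. Ndufa2 had log2 signals of 5.42, 5.13, 4.97, 5.27 and 5.09 on the Cx30GRko Dex arrays and 5.08, 4.57, 4.88, 4.74 and 4.62 on the Cx30GRko saline arrays. Ndufa2 signals in control mice were 4.87, 5.02, 4.96, 4.92 and 4.87 with Dex and 5.11, 4.88, 5.02, 5.16 and 5.26 with saline. All 5 Cx30GRko saline signals of Ndufa2 were at 5.08 or below, and 4 of the 5 Cx30GRko Dex signals were above that level. The Dex difference of Ndufa2 was 0.40 ± 0.13 in Cx30GRko mice (SE; limma adjusted p = 0.470; 0.33 in set A and 0.50 in set B), against -0.16 ± 0.13 in control mice (SE; limma adjusted p = 0.959). The difference between these effects, the interaction, was 0.55 ± 0.18 (SE; limma adjusted p = 0.846).

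Ndufa11 had log2 signals of 7.67, 7.52, 7.39, 7.40 and 7.51 on the Cx30GRko Dex arrays and 7.40, 7.19, 7.35, 6.94 and 7.42 on the Cx30GRko saline arrays. Ndufa11 signals in control mice were 7.18, 7.50, 7.56, 7.46 and 7.48 with Dex and 7.37, 7.69, 7.79, 7.65 and 7.89 with saline. Every control saline signal of set B exceeded the other 6 arrays of that set. The Dex difference of Ndufa11 was 0.24 ± 0.13 in Cx30GRko mice and -0.24 ± 0.13 in control mice, and the interaction was 0.48 ± 0.19 (SE; limma adjusted p = 0.846; 0.41 in set A and 0.57 in set B). Under saline the fitted difference, Cx30GRko minus control, was -0.42 ± 0.13 (SE; limma adjusted p = 0.914).

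Ndufb11, an X-linked accessory subunit of the membrane arm, was one of the 2 subunits on which Cx30GRko Dex replicates 4 and 5 were both lowest in their set. Ndufb11 had log2 signals of 6.73, 6.29, 6.74, 5.89 and 5.51 on the Cx30GRko Dex arrays and 6.26, 6.58, 6.35, 7.36 and 6.65 on the Cx30GRko saline arrays. Ndufb11 signals in control mice were 6.58, 6.84, 6.99, 7.25 and 7.18 with Dex and 6.94, 6.86, 6.56, 6.55 and 6.76 with saline. The Dex signals of both genotypes overlapped in set A. Under Dex the Cx30GRko difference from control was -0.73 ± 0.23 (SE; limma adjusted p = 0.423), at -0.22 in set A and -1.51 in set B (limma adjusted p = 0.130).

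Ndufv1, the core subunit that binds NADH and the flavin, stood apart by genotype in set B. Ndufv1 had log2 signals of 7.44, 7.40, 7.29, 8.13 and 8.12 on the Cx30GRko Dex arrays and 7.33, 7.26, 7.55, 7.57 and 7.87 on the Cx30GRko saline arrays. Ndufv1 signals in control mice were 7.28, 7.36, 7.24, 6.59 and 6.60 with Dex and 7.32, 7.48, 7.51, 6.72 and 7.37 with saline. In set B all 4 Cx30GRko signals, Dex and saline, were above all 4 control signals. How large a share of all genes separates by genotype in this way was not counted. Under Dex the Cx30GRko difference from control was 0.66 ± 0.21 (SE; limma adjusted p = 0.423), at 0.08 in set A and 1.53 in set B. Over the other complex I genes the mean Dex effect ran up to 0.51, for Ndufa13, and down to -0.16, for Ndufb10. These 2 were chosen after their values were seen.

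The 13 complex I genes with both Cx30GRko Dex arrays highest in set B were Ndufa1, Ndufa3, Ndufa4, Ndufa7, Ndufa9, Ndufb9, Ndufc1, Ndufc2, Ndufs3, Ndufs4, Ndufs5, Ndufs8 and Ndufv1. They hold core subunits and accessory subunits of both arms. Among the core subunits of the matrix arm, through which electrons from NADH enter, the Dex difference in Cx30GRko mice in set B was 1.21 for Ndufs8, 0.96 for Ndufs3, 0.65 for Ndufv2, 0.28 for Ndufs1 and 0.17 for Ndufs7. In control mice the same genes had 0.10, -0.08, 0.20, -0.13 and 0.36. Several accessory subunits had differences as wide in set B: Ndufa13 (1.65, against 1.07 in control mice), Ndufa1 (1.53, against 0.23), Ndufs4 (1.52, against -0.54), Ndufa6 (1.29, against 0.10) and Ndufa9 (1.19, against -0.10). In set A these 5 genes lay between -0.11 and 0.10 in both genotypes. The pattern was not shared by the membrane-arm subunits Ndufb6, Ndufb7, Ndufb8 and Ndufb10, at -0.26, -0.21, -0.06 and -0.39 in set B. Genes described by subunit position, here and for the other complexes, were chosen after their values were seen.

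**Figure D4:**
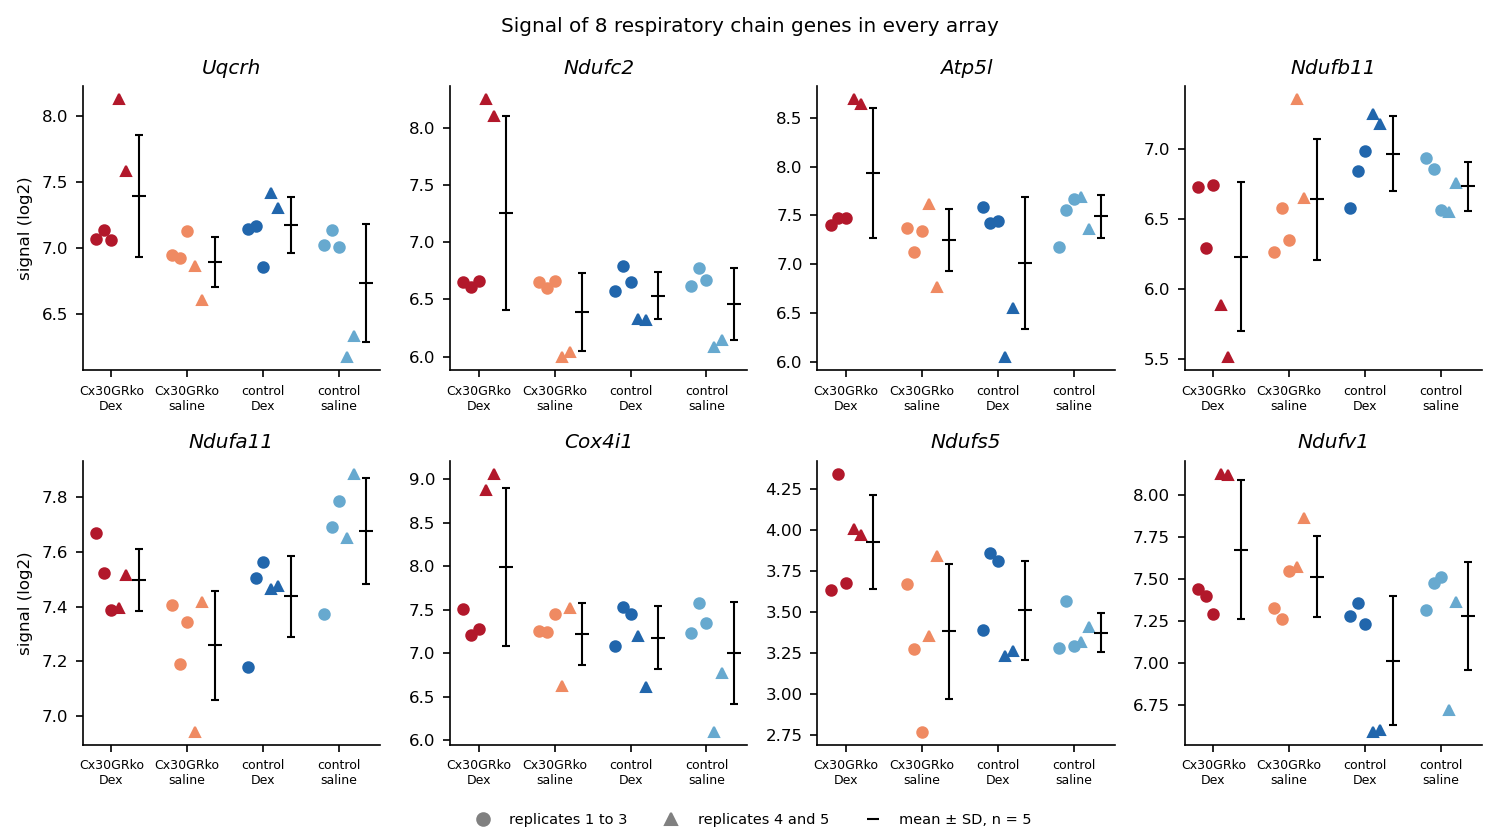
Log2 signal of 8 subunit genes on every array, by group, with circles for replicates 1 to 3 and triangles for replicates 4 and 5. Ndufc2 lies between 6.57 and 6.79 on the 12 arrays of replicates 1 to 3 and at 8.25 and 8.10 on Cx30GRko Dex replicates 4 and 5, and Ndufb11 is at its lowest on those 2 arrays.

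Complex II has 4 subunits, all encoded in the nucleus. Sdha carries the flavin and oxidises succinate, Sdhb holds iron-sulfur clusters, and Sdhc and Sdhd anchor the complex in the membrane. Sdha had log2 signals of 8.99, 9.01, 9.09, 9.73 and 9.32 on the Cx30GRko Dex arrays and 8.95, 9.0, 9.05, 8.92 and 8.79 on the Cx30GRko saline arrays. Sdha signals in control mice were 9.02, 9.01, 9.11, 9.13 and 8.64 with Dex and 9.0, 8.88, 8.98, 8.90 and 8.62 with saline. Sdha had the smallest residual SD of the subunits in set A, where all its signals lay between 8.88 and 9.11. Its mean Dex effect was 0.20 ± 0.10 (SE; limma adjusted p = 0.607), at 0.06 in set A and 0.40 in set B. Sdhd had log2 signals of 6.84, 6.31, 6.59, 7.66 and 7.73 on the Cx30GRko Dex arrays and 6.71, 6.72, 6.79, 5.43 and 6.88 on the Cx30GRko saline arrays. Sdhd signals in control mice were 6.61, 6.87, 6.69, 6.55 and 6.98 with Dex and 6.62, 6.91, 6.79, 5.71 and 6.68 with saline. The Sdhd groups overlapped in set A, and in set B the 2 highest signals were the Cx30GRko Dex arrays and the 2 lowest were saline replicate 4 of each genotype. The mean Dex effect of Sdhd was 0.36 ± 0.21 (SE; limma adjusted p = 0.630), at -0.10 in set A and 1.06 in set B. The mean Dex effect was 0.03 ± 0.11 for Sdhb (SE; limma adjusted p = 0.949) and 0.09 ± 0.16 for Sdhc (SE; limma adjusted p = 0.891). Sdhb and Sdhc were below 0 in set A, at -0.02 and -0.08.

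Complex III carries electrons from coenzyme Q to cytochrome c. Uqcrh, the acidic hinge protein near the cytochrome c docking site, had the smallest unadjusted p of all 79 subunits for the mean Dex effect. Uqcrh had log2 signals of 7.07, 7.14, 7.06, 8.13 and 7.58 on the Cx30GRko Dex arrays and 6.95, 6.92, 7.13, 6.86 and 6.60 on the Cx30GRko saline arrays. Uqcrh signals in control mice were 7.14, 7.16, 6.85, 7.42 and 7.30 with Dex and 7.02, 7.14, 7.01, 6.17 and 6.33 with saline. In set A the Dex and saline signals overlapped in both genotypes. In set B all 4 Dex signals, 7.30 to 8.13, were above all 4 saline signals, 6.17 to 6.86. The share of all genes that separate in this way was not counted. The mean Dex effect was 0.47 ± 0.15 (SE; 95% interval 0.16 to 0.79; 1.39-fold; limma adjusted p = 0.409), at 0.04 in set A and 1.11 in set B. It was 0.50 ± 0.21 in Cx30GRko mice and 0.44 ± 0.21 in control mice.

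Uqcrb, a small subunit close to the coenzyme Q pocket, had the smallest unadjusted p of complex III for the interaction. Uqcrb had log2 signals of 8.50, 8.39, 8.44, 9.72 and 9.30 on the Cx30GRko Dex arrays and 8.38, 8.62, 8.40, 8.62 and 8.40 on the Cx30GRko saline arrays. Uqcrb signals in control mice were 8.42, 8.50, 8.40, 8.42 and 7.53 with Dex and 8.51, 8.71, 8.37, 8.05 and 7.73 with saline. The 2 highest signals of set B were those with Dex in Cx30GRko mice, and the 2 lowest were control Dex and control saline replicate 5. Under Dex the Cx30GRko difference from control was 0.62 ± 0.25 (SE; limma adjusted p = 0.423), at 0.0034 in set A and 1.54 in set B. The interaction was 0.41 ± 0.35 (SE; limma adjusted p = 0.873). The proteins that form the frame and the electron path of complex III gave Dex differences in Cx30GRko mice in set B of 0.33 for Uqcrc1 and 0.56 for Uqcrc2, the core proteins, and 0.66 for Uqcrfs1, the Rieske iron-sulfur protein. Set A gave -0.04, -0.07 and -0.08. Uqcr11, a small subunit, ran the other way in set B at -0.83 (0.11 in set A), and the dim Uqcrq was at 0.26. The pseudogene Uqcrh-ps1 had 0.36 in set A and 0.08 in set B, against 0.09 and 1.12 for Uqcrh.

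Complex IV passes electrons from cytochrome c to oxygen, and several of its subunits exist as a widely expressed form and a form of muscle, lung or testis. Cox4i1, the widely expressed form of subunit 4, was among the genes that split by array set. Cox4i1 had log2 signals of 7.51, 7.21, 7.27, 8.88 and 9.07 on the Cx30GRko Dex arrays and 7.26, 7.24, 7.46, 6.62 and 7.52 on the Cx30GRko saline arrays. Cox4i1 signals in control mice were 7.08, 7.53, 7.45, 7.20 and 6.61 with Dex and 7.23, 7.58, 7.34, 6.10 and 6.78 with saline. Both Cx30GRko Dex arrays of set B were above 8.8, and no other array exceeded 7.58. The Dex difference in Cx30GRko mice was 0.77 ± 0.34 (SE; limma adjusted p = 0.491), at 0.01 in set A and 1.90 in set B.

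Cox4i2, the form of lung and low oxygen, was dim. Cox4i2 had log2 signals of 4.33, 4.24, 4.14, 3.99 and 5.04 on the Cx30GRko Dex arrays and 3.95, 4.02, 3.90, 3.86 and 4.42 on the Cx30GRko saline arrays. Cox4i2 signals in control mice were 4.19, 4.08, 4.00, 3.52 and 3.86 with Dex and 4.42, 4.20, 4.17, 3.86 and 4.55 with saline. The Dex difference was 0.32 ± 0.19 in Cx30GRko mice and -0.31 ± 0.19 in control mice. The interaction was 0.63 ± 0.27 (SE; limma adjusted p = 0.846), at 0.45 in set A and 0.89 in set B.

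Cox6a1, the non-muscle form of subunit 6a, had the smallest unadjusted p of complex IV for the mean Dex effect. Cox6a1 had log2 signals of 9.52, 9.51, 9.51, 10.44 and 9.43 on the Cx30GRko Dex arrays and 9.41, 9.37, 9.59, 9.04 and 9.44 on the Cx30GRko saline arrays. Cox6a1 signals in control mice were 9.40, 9.62, 9.57, 9.76 and 9.61 with Dex and 9.41, 9.55, 9.54, 9.14 and 9.14 with saline. The groups overlapped in set A, and Cx30GRko Dex replicate 4 was the highest of all 20 arrays. The mean Dex effect was 0.27 ± 0.12 (SE; limma adjusted p = 0.565), at 0.04 in set A and 0.62 in set B. The muscle form Cox6a2 had dim signals of 3.23 to 4.36 and a mean Dex effect of 0.11 ± 0.13 (SE; limma adjusted p = 0.824).

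The other isoform pairs gave small mean Dex effects, none of them called. Cox6b1, the widely expressed form, had 0.03 ± 0.11 (SE; limma adjusted p = 0.951), and the testis form Cox6b2 had 0.15 ± 0.22 (SE; limma adjusted p = 0.865), with 6.00 on control Dex replicate 5 against 3.54 to 4.78 on all other arrays. Cox7a2 had 0.19 ± 0.12 (SE; limma adjusted p = 0.652). Its muscle counterpart Cox7a1 had -0.22 ± 0.12 (SE; limma adjusted p = 0.608), at -0.13 in set A and -0.35 in set B. Cox7b had 0.24 ± 0.21 (SE; limma adjusted p = 0.747), and the testis form Cox7b2 had 0.16 ± 0.11 (SE; limma adjusted p = 0.687). Cox8a had 0.22 ± 0.20 (SE; limma adjusted p = 0.754), and the muscle form Cox8b had -0.16 ± 0.12 (SE; limma adjusted p = 0.703). Cox8a under Dex was 8.33 and 7.40 on Cx30GRko replicates 4 and 5, against 5.88 and 5.76 on control replicates 4 and 5, for a genotype difference of 0.78 ± 0.28 over all arrays (SE; limma adjusted p = 0.423) and -0.06 in set A. Cox6b1 under saline differed by -0.26 ± 0.16 between Cx30GRko and control mice (SE; limma adjusted p = 0.914).

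Among the complex IV subunits without an isoform pair here, Cox5a, which faces the matrix, was another of the 27 genes high on both Cx30GRko Dex arrays of set B. Cox5a had log2 signals of 7.03, 6.98, 6.84, 8.36 and 8.36 on the Cx30GRko Dex arrays and 6.90, 6.76, 7.18, 6.13 and 7.09 on the Cx30GRko saline arrays. Cox5a signals in control mice were 6.93, 7.13, 7.12, 7.26 and 5.98 with Dex and 6.74, 7.08, 6.85, 5.87 and 6.66 with saline. Its 2 Cx30GRko Dex signals in set B were above every other array of both sets. The Dex difference of Cox5a in Cx30GRko mice was 0.0012 in set A and 1.75 in set B. Cox5b, which binds zinc on the matrix side, had 0.05 in set A and -0.26 in set B. Cox7c had -0.05 and 0.24, and Cox7a2l, which helps join complexes III and IV into supercomplexes, 0.02 and 0.59. The testis form Cox8c was dim, with 0.10 and 0.12.

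Complex V couples the proton flow through its membrane ring to ATP synthesis in the F1 head. Atp5h, subunit d of the peripheral stalk, had the smallest unadjusted p of complex V for the mean Dex effect. Its values are from the brighter of 2 probe sets. Atp5h had log2 signals of 8.59, 8.42, 8.37, 9.56 and 8.76 on the Cx30GRko Dex arrays and 8.48, 8.37, 8.32, 8.03 and 8.40 on the Cx30GRko saline arrays. Atp5h signals in control mice were 8.41, 8.44, 8.36, 8.69 and 8.41 with Dex and 8.41, 8.55, 8.42, 7.56 and 8.0 with saline. In set A all 12 signals lay between 8.32 and 8.59. In set B all 4 Dex signals were above all 4 saline signals, with the lowest Dex signal, 8.41, next to the highest saline signal, 8.40. As for Uqcrh, the share of all genes with such a separation was not counted. The mean Dex effect was 0.35 ± 0.15 (SE; limma adjusted p = 0.549), at 0.01 in set A and 0.86 in set B.

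Atp5l, subunit g in the membrane, had the largest interaction of the subunits named here. Atp5l had log2 signals of 7.41, 7.47, 7.48, 8.69 and 8.64 on the Cx30GRko Dex arrays and 7.38, 7.13, 7.34, 7.61 and 6.77 on the Cx30GRko saline arrays. Atp5l signals in control mice were 7.59, 7.42, 7.44, 6.05 and 6.55 with Dex and 7.18, 7.56, 7.67, 7.69 and 7.37 with saline. In set B the 2 Cx30GRko Dex arrays were highest and the 2 control Dex arrays were lowest, and in set A the Dex signals, 7.41 to 7.59, lay within the range of the saline signals, 7.13 to 7.67. The interaction was 1.17 ± 0.42 (SE; limma adjusted p = 0.846), at 0.15 in set A and 2.70 in set B. Under Dex the Cx30GRko difference from control was 0.93 ± 0.29 (SE; 1.90-fold, limma adjusted p = 0.423), at -0.03 in set A and 2.36 in set B.

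Atp5pb, subunit b of the peripheral stalk, was among the 3 subunits with the smallest unadjusted p for Dex in control mice. Atp5pb had log2 signals of 7.74, 7.60, 7.68, 8.26 and 8.18 on the Cx30GRko Dex arrays and 7.69, 7.61, 7.64, 7.18 and 8.06 on the Cx30GRko saline arrays. Atp5pb signals in control mice were 7.70, 7.77, 7.75, 7.77 and 8.01 with Dex and 7.57, 7.98, 7.54, 7.51 and 6.54 with saline. Control saline replicate 5 was the lowest of all 20 arrays. The Dex difference in control mice was 0.38 ± 0.21 (SE; limma adjusted p = 0.942), at 0.05 in set A and 0.87 in set B.

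The parts of ATP synthase covered a range of differences in set B. In Cx30GRko mice the Dex difference there was 0.49 for Atp5b, the catalytic beta subunit, 0.46 for Atp5a1, the alpha subunit, -0.04 for Atp5c1, -0.31 for Atp5d and 0.33 for Atp5e of the central stalk. The 3 genes that encode the same mature c ring protein differed among themselves, with 1.19 for Atp5g3, 0.83 for Atp5g2 and -0.26 for Atp5g1. In the peripheral stalk Atp5o had 0.38 and Atp5j 0.12. Of the small membrane subunits Atp5md had 0.65, Atp5mpl 0.24 and Atp5k -0.05. Head and ring were not compared by a test.

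Atp5j2, subunit f in the membrane, was the other gene on which both Cx30GRko Dex arrays were lowest in set B. Atp5j2 had log2 signals of 3.8, 3.73, 3.11, 3.09 and 3.02 on the Cx30GRko Dex arrays and 3.97, 2.66, 2.77, 3.12 and 3.89 on the Cx30GRko saline arrays. Atp5j2 signals in control mice were 3.61, 3.12, 3.06, 3.26 and 3.32 with Dex and 3.91, 3.46, 3.21, 3.58 and 3.66 with saline. It was dim, the gap to the next array was 3.09 against 3.12, and in set A its Dex difference in Cx30GRko mice had the other sign, 0.41, against -0.45 in set B.

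Genotypes were compared under each treatment. Under Dex, Cx30GRko against control mice, the median subunit difference was 0.16, against 0.01 for all genes, and 63 of 79 were above 0 (52.1% of all genes). Within the brightest decile it was 0.18 for the subunits and 0.17 for all genes, and within the ninth 0.06 and 0.12. Limma called 0 subunits and 0 genes (0%), and 14 subunits had an unadjusted p under 0.05 (11.2% of all genes). Set A gave a median of -0.03, 31 were above 0 (48% of all genes), limma called 0 subunits and 0 genes, and 0 subunits had an unadjusted p under 0.05 (4.78% of all genes). In set B the median was 0.41, 59 were above 0 (53.3% of all genes), limma called 0 subunits and 0 genes, and 19 subunits had an unadjusted p under 0.05 (14.6% of all genes). Without Cx30GRko Dex replicates 4 and 5 the pooled median was 0.01. After quantile normalization it was 0.06 over all arrays and 0.08 in set B, against 0.02 and 0.07 for all genes. The complexes had pooled medians of 0.18, 0.22, 0.19, 0.10 and 0.13 for complexes I to V.

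Under saline, Cx30GRko against control mice, the median subunit difference was 0.03, against 0.01 for all genes, with 50 of 79 above 0 (51.3% of all genes). Within the brightest decile the median was 0.06 for the subunits and 0.07 for all genes, and within the ninth -0.04 and 0.04. Limma called 0 subunits and 0 genes, and 2 subunits, Ndufa11 and Ndufa2, had an unadjusted p under 0.05 (5.25% of all genes). In set A, 30 were above 0 (50.6% of all genes), limma called 0 subunits and 0 genes, and 2 had an unadjusted p under 0.05 (5.69% of all genes). In set B, 48 were above 0 (51.6% of all genes), limma called 0 subunits and 0 genes, and 1 had an unadjusted p under 0.05 (5.32% of all genes). The medians were -0.04 in set A and 0.15 in set B.

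The interaction asks whether the Dex effect differed between genotypes. Its median over the subunits was 0.11, against 0.02 for all genes, with 56 of 79 above 0 (52.8% of all genes), meaning a higher Dex difference in Cx30GRko than in control mice. Limma called 0 subunits and 0 genes, and 5 subunits had an unadjusted p under 0.05 (5.65% of all genes). Set A gave a median of 0.01, 41 were above 0 (48.3% of all genes), limma called 0 subunits and 0 genes, and 1 subunit had an unadjusted p under 0.05 (5.28% of all genes). In set B the median was 0.31, 59 were above 0 (54% of all genes), limma called 0 subunits and 0 genes, and 9 subunits had an unadjusted p under 0.05 (7.38% of all genes). Without Cx30GRko Dex replicates 4 and 5 the median was -0.02. After quantile normalization it was 0.05 over all arrays and 0.13 in set B, against 0.01 and 0.07 for all genes.

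The subunits were bright, and the Dex differences of all genes in set B varied with signal. In the brightest decile of all genes (2218 genes, 32 of them subunits) the median Dex difference in Cx30GRko mice in set B was 0.61 for the subunits and 0.46 for all genes. In the ninth decile, with 15 subunits, it was -0.05 for the subunits and 0.28 for all genes, and in the eighth, with 6, it was 0.05 and 0.15. The seventh decile gave 0.58 for 6 subunits and 0.11 for all genes, and the sixth 0.50 for 5 subunits and 0.03. In control mice the brightest decile gave 0.22 for the subunits and 0.11 for all genes. Under Dex the genotype difference in that decile was 0.53 for the subunits and 0.46 for all genes. In set A the brightest decile was at 0.0033 for the subunits and -0.02 for all genes in Cx30GRko mice. The part of signal strength in the subunit differences was not tested.

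**Figure D5:**
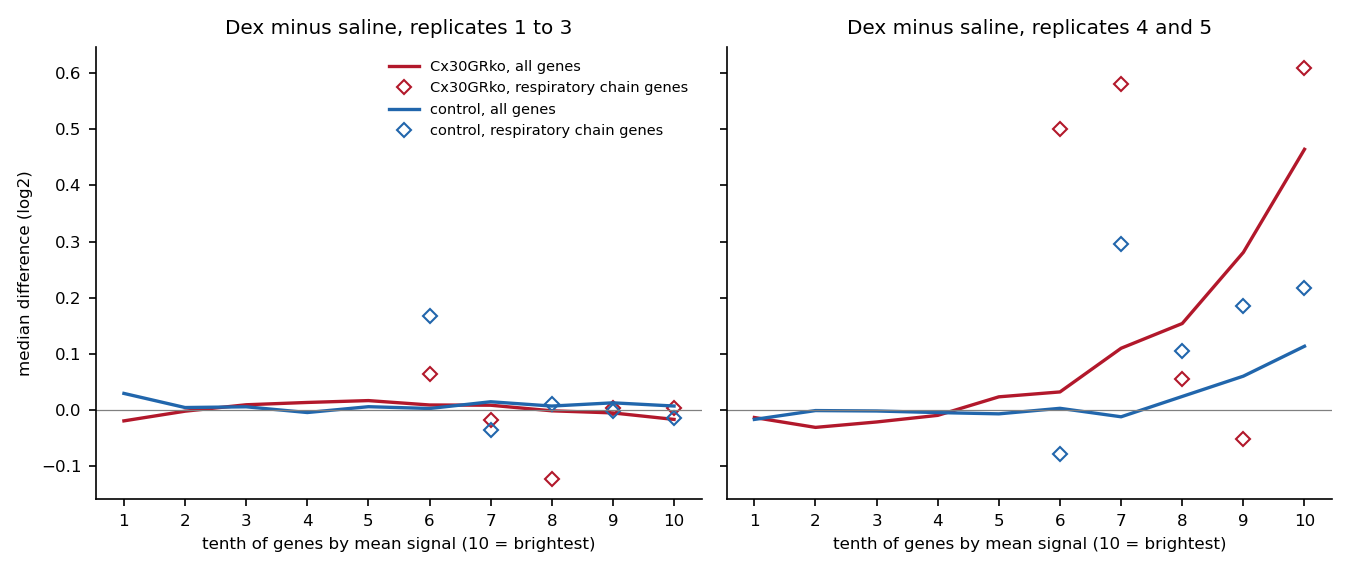
Median Dex minus saline difference (log2) by decile of mean signal, with lines for all genes and diamonds for the subunits where there were at least 5 of them, in separate panels for replicates 1 to 3 and replicates 4 and 5. In replicates 4 and 5 the line for Cx30GRko mice reaches 0.46 in the brightest decile, where the 32 subunits are at 0.61, and in replicates 1 to 3 it stays near 0.

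The genes that build and feed the chain were measured as well. No gene of the following lists was called by limma in any of the 6 comparisons. The 10 measured subunits encoded by mitochondrial DNA had a median mean Dex effect of 0.12, with 10 of 10 above 0, and a median Dex difference in Cx30GRko mice of 0.01 in set A and 0.53 in set B. Their examples were ND3, of complex I, at 0.25 (limma adjusted p = 0.598) and COX3, of complex IV, at 0.14 (limma adjusted p = 0.721). The 12 measured enzymes of the tricarboxylic acid cycle had a median mean Dex effect of 0.23, with 9 above 0, and 0.03 and 0.88 in the array sets in Cx30GRko mice. Among them Fh1, fumarate hydratase, was at 0.46 (limma adjusted p = 0.520) and Idh3g, a subunit of isocitrate dehydrogenase, at 0.31 (limma adjusted p = 0.465). The 46 measured assembly factors had a median of 0.05, with 28 above 0. Cox18, which inserts a part of a mitochondrial subunit of complex IV, was at 0.36 (limma adjusted p = 0.558), and the copper-handling factor Cox19 at 0.27 (limma adjusted p = 0.578). The 14 genes of cytochrome c and coenzyme Q synthesis had a median of 0.08, with Coq9 at -0.24 (limma adjusted p = 0.566) and Coq7 at 0.26 (limma adjusted p = 0.577).

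The 15 regulators of mitochondrial gene expression had a median mean Dex effect of 0.02, and in Cx30GRko mice -0.04 in set A and -0.24 in set B. The methyltransferase gene Tfb1m was at -0.28 (limma adjusted p = 0.541) and the mitochondrial transcription factor gene Tfb2m at -0.23 (limma adjusted p = 0.565). The Dex difference of Tfb2m in Cx30GRko mice was -0.53 in set A and -0.48 in set B. The 13 measured carriers, channels and creatine kinases had a median of 0.07. Slc25a3, the phosphate carrier that supplies ATP synthase, was at 0.54 ± 0.17 (SE; limma adjusted p = 0.419), and the outer membrane channel Vdac1 at 0.21 (limma adjusted p = 0.576). The 71 mitochondrial ribosomal protein genes had a median of 0.01, with Mrpl55 at 0.50 (limma adjusted p = 0.373) and Mrps18c at -0.83 (limma adjusted p = 0.468). The 67 cytosolic ribosomal protein genes had a median of 0.07, with Rps16 at 0.37 (limma adjusted p = 0.541) and Rpl3l at -0.48 (limma adjusted p = 0.551). In set B the median Dex difference in Cx30GRko mice was 0.07 for the mitochondrial and 0.13 for the cytosolic ribosomal protein genes, against 0.41 for the respiratory chain subunits. It was 0.88 for the tricarboxylic acid cycle, 0.53 for the subunits encoded by mitochondrial DNA and 0.46 for all genes of the brightest decile. The assembly factors had 0.20, the cytochrome c and coenzyme Q genes 0.11, and the carriers, channels and creatine kinases 0.06.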

How the data were processed

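RNA from 20 mouse spinal cords was hybridised to Affymetrix whole-transcript arrays, 1 per sample. The authors deposited probe set values on the log2 scale, and oligo is named per the submitters' processing notes. Its version, the normalization and the genome build are not given in the sources used here. Centring within 2 array sets was read off the values. Among the 41345 probe sets, 23521 carried a single symbol, 1814 more than 1 and 16010 none. For 22180 genes the brightest probe set was fitted with limma 3.58.1 in R 4.3.3: 4 group means, 16 residual degrees of freedom, of which centring had used 1, two-sided p-values, Benjamini-Hochberg adjustment over all genes within each of 6 comparisons, calls at an adjusted p under 0.05. The script was tested on simulated data with independent noise and without centring by array set. That test concerns the code and lends no support to the differences described here. The members, lists and roles were chosen with earlier results of these data known. Named were all Sdh genes, the smallest p per complex for the mean Dex effect and for the interaction, the 3 smallest p of each comparison, the isoform pairs, and up to 2 genes of each list. Alternatives were array sets, single arrays left out, renormalization, array weights, blocks and probe set choice. Each sample was taken as a separate mouse, as the design states.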

Additional observations from a re-analysis of the deposited data

Results flagged for a closer look

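In 19 of the 132 groups of 5 values examined (the 27 named subunits and the mean deviation of all 79 genes and of each of the 5 complexes, in each of 4 groups), the highest or lowest array stood farther from the rest than the 95% limit of Dixon's test. Chance alone gives about 1 in 20 groups, and replicates 4 and 5 have the wider spread. Of the 19, 18 were arrays of replicates 4 or 5.

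In complex II the low arrays were control Dex replicate 5 for Sdha (8.64), control saline replicate 4 for Sdhb (6.12) and Sdhd (5.71), Cx30GRko saline replicate 5 for Sdhc (6.41) and Cx30GRko saline replicate 4 for Sdhd (5.43). Cx30GRko Dex replicate 4 was high for Sdhc (7.60). In complex I, control saline replicate 4 was low for Ndufv1 (6.72) and control Dex replicate 1 was low for Ndufa11 (7.18). In complex III, control Dex replicate 5 was low for Uqcrb (7.53).

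In complex IV, Cx30GRko Dex replicate 4 was high for Cox6a1 (10.44) and low for Cox7a1 (3.74). Cx30GRko Dex replicate 5 was high for Cox6a2 (4.36), Cx30GRko saline replicate 5 for Cox4i2 (4.42) and control Dex replicate 5 for Cox6b2 (6.00). In complex V, control Dex replicate 4 was high for Atp5h (8.69) and control Dex replicate 5 for Atp5pb (8.01). Among the mean deviations, complex III was high on Cx30GRko Dex replicate 4 (0.58), complex II was low on Cx30GRko saline replicate 4 (-0.29) and complex V was low on control Dex replicate 5 (-0.17).

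For Ndufa11 the Dex difference ran in opposite directions in the genotypes. The limma interaction was 0.48, with an adjusted p of 0.846.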

How the results depend on the processing

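The 64 results were recomputed under 32 alternatives, 1 of them (replicates 4 and 5 with quantile normalization again) chosen after seeing the data. No subunit was called in any of them, and the lowest adjusted p of a subunit was 0.111. The median Dex difference in Cx30GRko mice moved to -0.0019 in replicates 1 to 3, 0.41 in replicates 4 and 5 and 0.038 without Cx30GRko Dex replicates 4 and 5. The genotype difference under Dex moved to -0.031, 0.41 and 0.013 in the same settings. In replicates 4 and 5 the median was 0.32 for the mean Dex effect and 0.31 for the interaction. Quantile normalization, cyclic loess and array weights lowered the medians: to 0.087, 0.089 and 0.071 for Dex in Cx30GRko mice, 0.060, 0.071 and 0.051 for the genotype under Dex, 0.074, 0.069 and 0.038 for the mean Dex effect, and 0.050, 0.036 and 0.058 for the interaction. Array weights gave 0.026 for Dex in control mice and -0.032 for the genotype under saline. Replicates 4 and 5 with quantile normalization gave 0.19, 0.076, 0.16 and 0.13 for the first 4. Leaving out single arrays gave 0.12 to 0.25 for Dex in Cx30GRko mice, 0.079 to 0.15 for the mean Dex effect, 0.055 to 0.20 for the interaction and 0.086 to 0.21 for the genotype under Dex, each lowest without Cx30GRko Dex replicate 4, and the interaction highest without Cx30GRko Dex replicate 3. It gave 0.020 to 0.10 for Dex in control mice and -0.0058 to 0.067 for the genotype under saline, both lowest without control saline replicate 4, with genotype under saline highest without control saline replicate 2. Deviations of same-numbered arrays correlated above 0.1 in 0 of 30 pairs (median -0.087). Centring lowers correlations between arrays of the same set, so these values cannot decide whether the replicate numbers were a pairing. With every group at each number, the replicate block cannot move the differences. It left the median Dex difference in Cx30GRko mice at 0.20, with 0 subunits called. The cause of the changes was not tested.

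Of 1614 recomputed gene values, 46 changed sign, in 15 gene results. In replicates 1 to 3 the mean Dex effect was -0.022 for Sdhb, -0.082 for Sdhc, -0.10 for Sdhd, -0.073 for Cox6b1, -0.0094 for Cox4i1, -0.027 for Cox6a2, -0.027 for Cox6b2, -0.0071 for Cox7a2, -0.11 for Cox7b, -0.013 for Cox8a and -0.011 for COX3. There Uqcrh in control mice was at -0.0019 and Atp5l under Dex by genotype at -0.031. Quantile normalization gave -0.0051 for Sdhb and -0.081 for Cox6b1. Cyclic loess gave -0.027 for Sdhb, -0.064 for Cox6b1 and -0.012 for COX3. Array weights gave -0.024 for Sdhc, -0.040 for Cox6b1 and -0.0085 for Cox7b. Without Cx30GRko Dex replicates 4 and 5 the values were -0.017 for the Uqcrb interaction, -0.051 for Cox4i2, -0.065 for Cox6b1 and -0.049 for Cox8a. Cox4i2 was -0.072 in replicates 4 and 5, and with quantile normalization there -0.012, where Cox6b1 was -0.11. Leaving out single arrays gave -0.041 to 0.065 for Sdhb, -0.017 to 0.19 for Sdhc, -0.082 to 0.056 for Cox4i2, -0.021 to 0.080 for Cox6b1 and -0.044 to 0.23 for Cox6b2.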
